A study of Mus musculus with 6 samples.

Results

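The vesicle fusion genes of chromaffin cells described here are Snap25, Stx1a, Vamp2, Syt1, Syt4, Cplx1, Cplx2, Rab3a and Rab3d. They were chosen by name for their known roles in regulated exocytosis, with earlier results of these data known. Every probe set whose single gene symbol in the platform annotation is on the list was taken. This gave 11 probe sets for these 9 genes, of 8251 genes with such a probe set. The samples were adrenal glands of male mice aged 12 weeks, 3 of the hypertensive strain BPH and 3 of the hypotensive strain BPL, with 1 Affymetrix array each. The strains were bred apart for high and low blood pressure, and no treatment is stated for either. Since it is not stated that each array held RNA of a separate mouse, p-values cover only the spread between these arrays, some of which may be technical.

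Chromaffin cells of the adrenal medulla store catecholamines and peptides in dense-core granules and release them when calcium enters the cell. Fusion is driven by a SNARE complex, in which Vamp2 on the granule pairs with syntaxin 1 and Snap25 on the plasma membrane. Synaptotagmins sense the calcium, complexins bind the assembled SNARE bundle and hold or help it, and Rab3 GTPases tie granules to the membrane before they fuse. The medulla is a small part of the gland, and most of the gland's RNA comes from the steroid-making cortex.

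No member differed between the strains beyond the test's threshold. Signals of Vamp2 were higher on every BPH array than on any BPL array, with a fitted difference of 1.30-fold. Those of Snap25 were 1.53-fold higher in BPH. They separated the strains after the arrays were scaled to a common median, but not with the authors' own scaling. Neither passed correction over the whole table. Complexin and Rab3 signals overlapped between the strains. Of the 11 probe sets, 6 were bright enough to be tested, 1 each of Snap25, Vamp2, Cplx1, Cplx2, Rab3a and Rab3d, and the only probe sets of Syt1, Syt4 and Stx1a were among the 5 that were not. By limma with Benjamini-Hochberg adjustment, 0 of the 6 were called, against 4.11% of the 7453 tested probe sets of the array. At an unadjusted p under 0.05 there were 2 of 6, both higher in BPH. Of all tested probe sets, 20.6% were at that level in either direction and 14.2% were higher in BPH. The median log2 difference of the 6 was 0.12, and that of all tested probe sets was 0.08. In whole glands, fewer cells of a type and less RNA per cell cannot be told apart.

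Signals are printed on the linear scale of the array software after scaling each array to a common median, and log2 differences are BPH minus BPL on log2(signal + 203), which understates changes of dim genes. Intervals are 95% limits from limma for a single probe set, not adjusted for the number tested.

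Snap25, the plasma membrane SNARE that gives 2 helices to the fusion bundle and is cut by botulinum toxin A, had signals of 1548, 1970 and 3087 in BPH replicates 1, 2 and 3, against 1246, 1184 and 1538 in BPL replicates 1, 2 and 3. The lowest BPH array lay only just above the highest BPL array, and BPH replicate 3 stood well above the other two. With the authors' own scaling the strains overlapped, since BPH replicate 1 was at 1407 and BPL replicate 3 at 1568. The means were 2202 ± 796 in BPH and 1323 ± 189 in BPL (SD, n = 3 arrays each). The log2 difference was 0.61 ± 0.24 (SE), with an interval of 0.07 to 1.16, and limma's adjusted p was 0.20. Without BPH replicate 3 the difference was 0.36 (limma adjusted p = 0.35).

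Vamp2, also called synaptobrevin 2, is the granule SNARE. Its bright probe set (98926_at) had signals of 8793, 8370 and 8603 in BPH replicates 1, 2 and 3, against 5891, 6675 and 7234 in BPL replicates 1, 2 and 3. The groups did not overlap and the BPH arrays lay close together, with means of 8589 ± 212 in BPH and 6600 ± 675 in BPL (SD, n = 3 arrays each). The log2 difference was 0.37 ± 0.15 (SE), with an interval of 0.03 to 0.72 and a limma adjusted p of 0.21. Groups that did not overlap with BPH above were found for 2 of the 6 member probe sets, against 19.7% of all tested probe sets. With the authors' scaling the count was 1 of 6, that of Vamp2, against 14.1% of all. A second Vamp2 probe set (98925_at) was too dim to be tested. It gave 549, 376 and 61.8 in BPH and 132, 130 and 125 in BPL. BPH replicate 3 was the lowest of its 6 values, so the dim probe set did not separate the strains.

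Stx1a, the syntaxin that completes the SNARE complex and holds Munc18 at the plasma membrane, was dim. Its signals were 515, 721 and 229 in BPH and 396, 184 and 780 in BPL, each strain spanning much of the other's range. With no filter on dim probe sets its log2 difference was 0.11, with an interval of -0.81 to 1.02, so this probe set bounds a change only loosely.

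**Figure D1:**
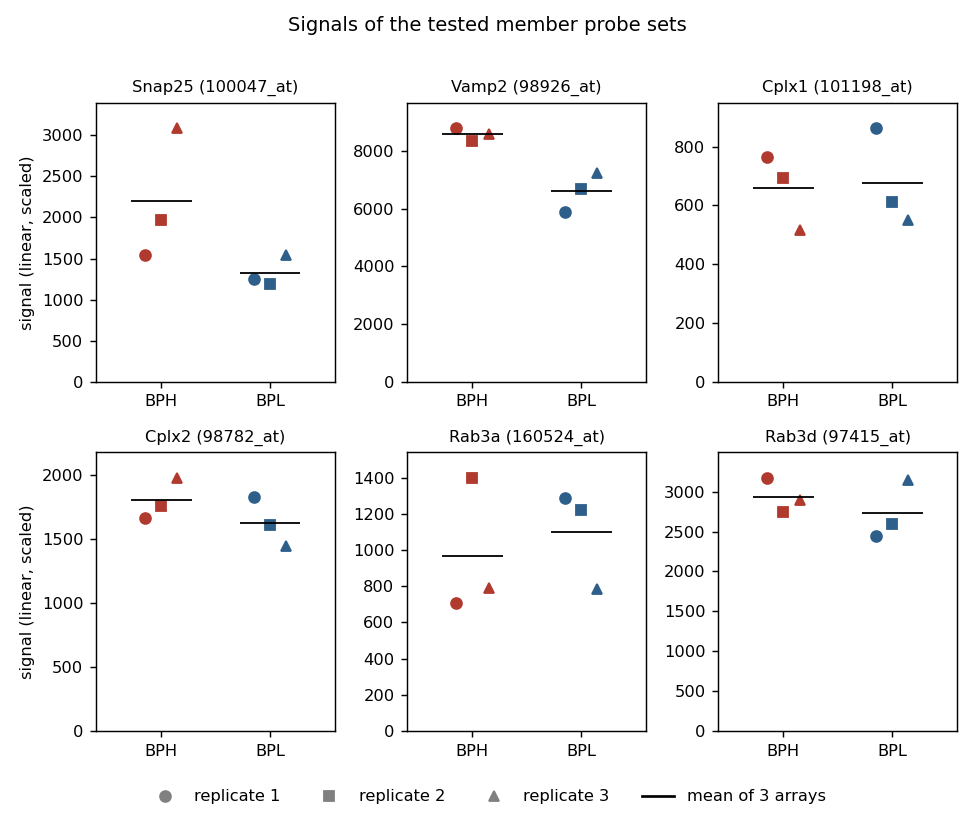
Scaled linear signals (vertical axes, starting at 0) of the 6 tested member probe sets, with BPH arrays on the left and BPL arrays on the right of each panel, 1 point per array and a line at the mean of 3 arrays. The strains do not overlap for Vamp2, and overlap for Cplx1, Cplx2, Rab3a and Rab3d. For Snap25 they do not overlap on this scaling (1548 against 1538 for its nearest arrays), but do with the authors' own scaling.

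Syt1, a fast calcium sensor of exocytosis, was measured by a single dim probe set. Its signals were 188, 139 and 789 in BPH and 331, 405 and 393 in BPL. BPH replicate 3 was the highest of the 6 arrays and the other BPH arrays were the lowest, while the BPL arrays lay close together. The BPH mean of 372 ± 362 and the BPL mean of 376 ± 39.7 (SD, n = 3 arrays each) therefore hide a split within BPH. With no filter the log2 difference was -0.18, with an interval of -1.07 to 0.71.

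Syt4, a synaptotagmin of dense-core granules whose first C2 domain lacks an acidic residue needed to bind calcium, is known in rat PC12 cells as a gene induced by depolarization. Its signals were 587, 460 and 578 in BPH and 482, 321 and 437 in BPL. BPH arrays were the higher ones on the whole, but the lowest of them lay under the highest BPL array. With no filter the log2 difference was 0.28 ± 0.18 (SE), with an interval of -0.14 to 0.69 (limma adjusted p = 0.52). In the same glands 14 of 17 tested immediate early genes, the class of genes that stimuli induce within minutes, were called higher in BPH and 0 lower, against 3.18% and 0.926% of all tested probe sets, with a median log2 difference of 2.02. That list was written with its rise in these data already known.

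**Figure D2:**
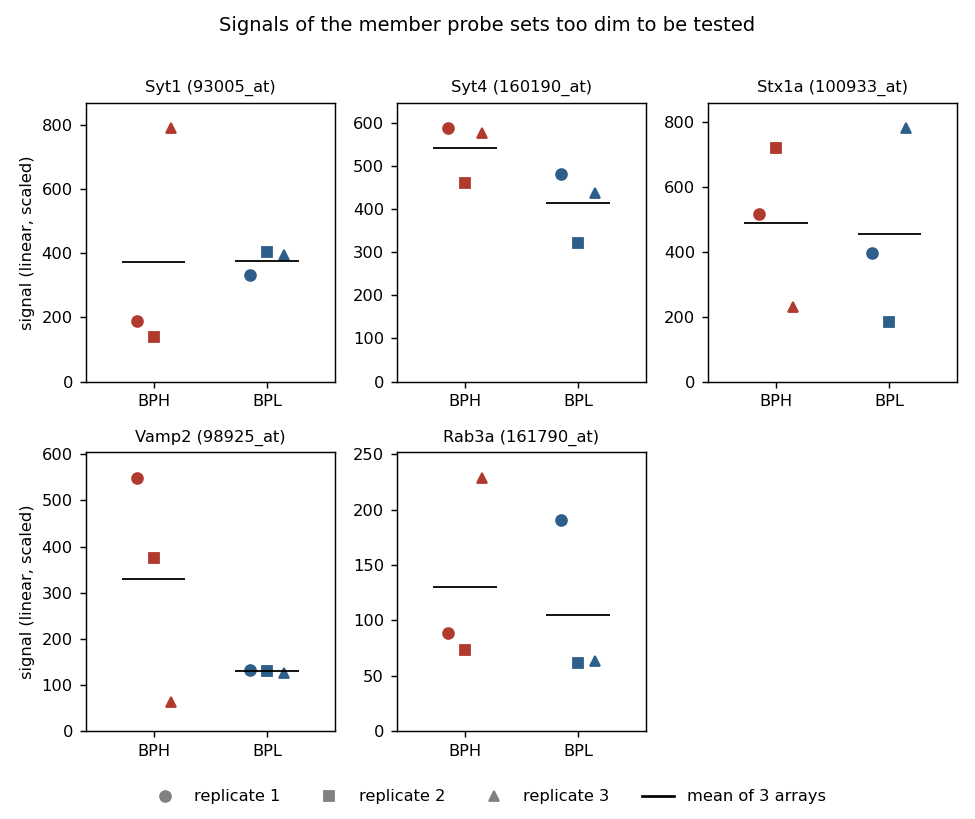
Scaled linear signals (vertical axes, starting at 0) of the 5 member probe sets too dim to be tested, with BPH arrays on the left and BPL arrays on the right of each panel, 1 point per array and a line at the mean of 3 arrays. The strains overlap in every panel, and BPH replicate 3 is the highest array for Syt1 and the lowest for Vamp2.

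Complexins are small cytosolic proteins that clasp the SNARE bundle. Cplx2, the form most studied in mouse chromaffin cells, had signals of 1668, 1762 and 1980 in BPH and 1833, 1607 and 1449 in BPL. The ranges overlapped and the spread within each strain was of the size of the difference. The log2 difference was 0.13 ± 0.16 (SE), with an interval of -0.22 to 0.49 (limma adjusted p = 0.66). Cplx1, a complexin of fast synapses, had 765, 692 and 517 in BPH and 862, 612 and 551 in BPL, values that interleaved. Its log2 difference was -0.02 ± 0.19 (SE), with an interval of -0.46 to 0.42 (limma adjusted p = 0.96). As folds the intervals were 0.856 to 1.40 for Cplx2 and 0.725 to 1.33 for Cplx1, within which either direction remains possible.

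Rab3a and Rab3d are closely related GTPases on secretory vesicles, Rab3a mostly in neurons and endocrine cells and Rab3d also in exocrine cells and fat. Rab3a's bright probe set (160524_at) had signals of 705, 1400 and 790 in BPH and 1288, 1220 and 788 in BPL. A single BPH array was high and a single BPL array was low, so the groups crossed. The log2 difference was -0.18 ± 0.26 (SE), with an interval of -0.76 to 0.41 (limma adjusted p = 0.73). Its second probe set (161790_at) ran from 61.2 to 229 over the 6 arrays and was not tested. Rab3d had signals of 3175, 2752 and 2890 in BPH and 2443, 2592 and 3149 in BPL. The strains shared most of their range, and the log2 difference was 0.11 ± 0.16 (SE), with an interval of -0.26 to 0.47 (limma adjusted p = 0.74), or 0.836-fold to 1.38-fold. With the authors' own scaling the Rab3d difference was -0.0034, so it has no settled sign.

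RefSeq promoter windows of assembly GRCm38.p6 were used for 6 of the 9 genes, 8 windows in all, each with 250 bases before and 50 from the start site. No window was at hand for Snap25 and Vamp2, and Syt4 was left out of the search. The 8 windows were searched on both strands for letters bound by factors of the immediate early response. The full cyclic AMP response element, TGACGTCA, was in 0 of the 8 windows, against 1.79% of all 32851 windows in the table. TGACG, the core of that element (any full element also counts as a core), was in 4 of 8 windows, those of Stx1a, Cplx1, Rab3d and the upstream start site of Rab3a, against 20.8% of all windows. TGANTCA, an AP-1 motif, was in 0 of 8, against 7.81% of all. GCGNGGGCG, an Egr motif, was in 1 of 8, the Cplx1 window, against 5.55% of all. A match is a run of letters and not a bound site. Shown here are the stretches around the start sites of Rab3a, Rab3d and Cplx1, from 80 bases before to 30 from the start, because Rab3a and Rab3d are paralogs that differ in these letters and Cplx1 holds both motifs. Capitals mark the core (CGTCA on the opposite strand) and the Egr letters. Rab3a lies at chr8:70754623-70754732 on the plus strand, Rab3d at chr9:21918154-21918263 on the minus strand and Cplx1 at chr5:108549998-108550107 on the minus strand.
Rab3a: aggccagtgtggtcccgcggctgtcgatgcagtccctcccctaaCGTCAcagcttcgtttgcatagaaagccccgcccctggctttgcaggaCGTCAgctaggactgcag
Rab3d: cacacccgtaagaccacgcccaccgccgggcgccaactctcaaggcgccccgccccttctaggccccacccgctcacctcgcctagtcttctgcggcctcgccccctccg
Cplx1: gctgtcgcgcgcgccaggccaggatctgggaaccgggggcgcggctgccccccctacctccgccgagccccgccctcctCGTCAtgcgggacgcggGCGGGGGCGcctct
The Rab3a stretch holds 2 cores and the Rab3d stretch 0, the Rab3d core lying further upstream, and the log2 differences of these genes, given above, had intervals that overlap widely.

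Beyond the members, 57 other genes of the exocytosis machinery had been listed, among them further SNAREs, their chaperones and priming factors, synaptotagmins, Rab3 partners and vesicle proteins. Of these, 30 were measured by a single-symbol probe set and 20 were bright enough to be tested. By limma with Benjamini-Hochberg adjustment 0 were called, against 4.11% of all tested probe sets, and 4 of 20 had an unadjusted p under 0.05, against 20.6% of all tested probe sets. The median log2 difference was 0.20 and 15 of 20 were positive, against 60.5% of all tested probe sets. The largest upward differences were those of Vamp8, a SNARE of granule and endosome fusion, at 0.57 ± 0.20 (SE, limma adjusted p = 0.16), of Nsf, the ATPase that takes spent SNARE complexes apart, at 0.56 ± 0.18 (limma adjusted p = 0.13), and of Syn2, a synapsin that tethers vesicles, at 0.54 ± 0.19 (limma adjusted p = 0.17). A second Vamp8 probe set stood at 0.19. Rab3ip, an exchange factor of Rab proteins, was at 0.03, and its second probe set at -0.55 (limma adjusted p = 0.19). The largest downward ones were those of Dnajc5, the cysteine string protein that keeps Snap25 folded, at -0.56 ± 0.31 (limma adjusted p = 0.34), of Snap23, the broadly expressed relative of Snap25, at -0.40 ± 0.20 (limma adjusted p = 0.28), and of Napb, a SNAP adaptor of Nsf, at -0.18 ± 0.24 (limma adjusted p = 0.71).

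Snap23 had signals of 1395, 1370 and 904 in BPH and 1502, 1549 and 1944 in BPL. All BPH arrays lay under all BPL arrays, as for 7.97% of all tested probe sets, and the gene did not pass. Syt7, the slower calcium sensor of chromaffin cells, was too dim to be tested, at 163, 223 and 142 in BPH and 309, 216 and 233 in BPL. Rab3b, another Rab3 gene, was below the filter because it was low in BPL. Its signals were 840, 1008 and 1110 in BPH and 322, 227 and 462 in BPL, and with no filter its log2 difference was 1.15 ± 0.21 (SE, limma adjusted p = 0.055). With no filter 1.02% of 12422 probe sets were called, and 0 of the 11 member probe sets. Syt7 and Rab3b are named here because of their values.

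**Figure D3:**
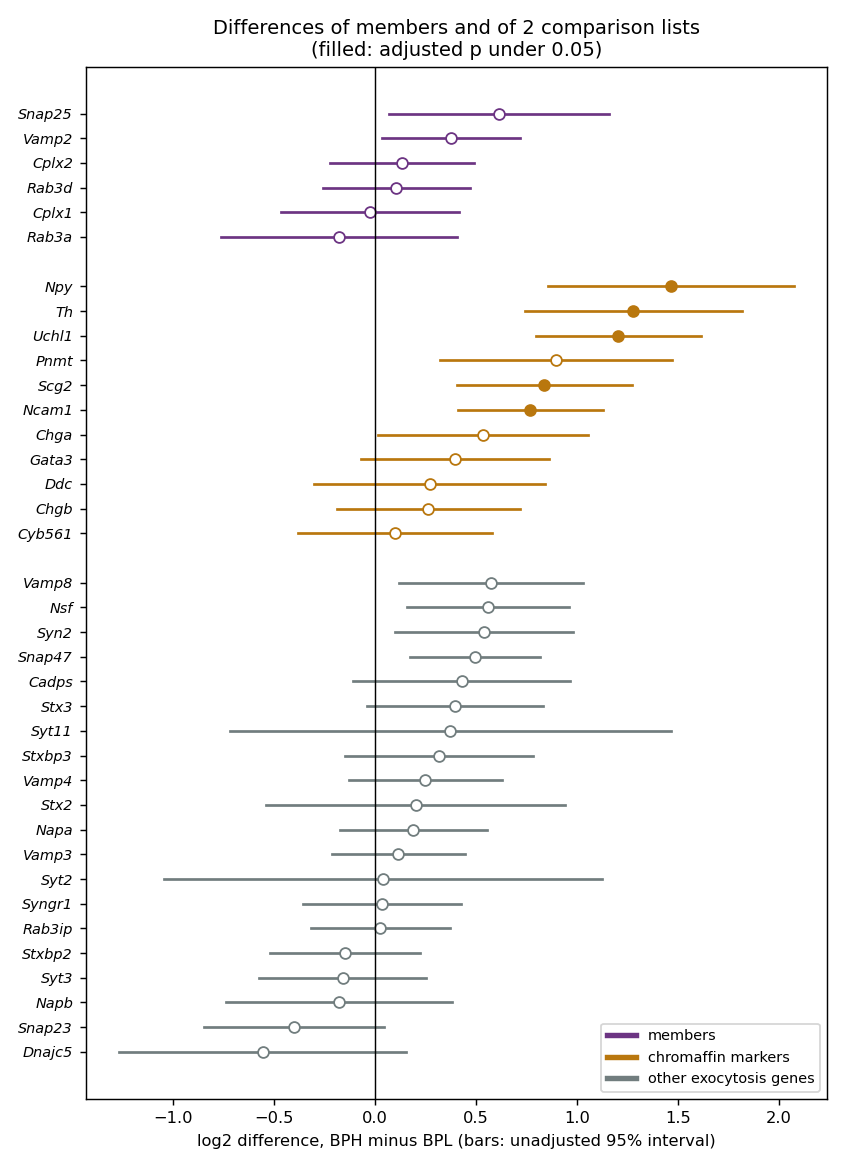
Log2 differences, BPH minus BPL (horizontal axis), with unadjusted 95% intervals for the 6 tested member probe sets, 11 tested chromaffin markers and 20 other exocytosis genes, filled where the limma adjusted p is under 0.05. Filled points are found among the chromaffin markers, 5 of 11, and none among the members or the other exocytosis genes.

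Markers of the chromaffin cell that are not part of the fusion machinery were split, with 5 of the 11 tested called higher in BPH and the other 6 not called. Of 17 listed, 13 were measured, and 0 were called lower. The 5 stand against 3.18% of all tested probe sets called higher. Their median log2 difference was 0.77, and 0.40 when the probe sets of each gene were averaged. Called markers were 3 with the authors' scaling, 3 with the replicate block and 2 with no filter. Those 2 were Uchl1 and Phox2a. Phox2a was below the filter and so not among the 11 tested, at 765, 776 and 704 in BPH and 187, 198 and 189 in BPL. With no filter Npy and Th were not called (limma adjusted p = 0.065 and 0.067). In the main test the largest of the 5 was Npy, a peptide released with catecholamines, at 1.47 ± 0.27 (SE, limma adjusted p = 0.023). Next were Th, the first enzyme of catecholamine synthesis, at 1.28 ± 0.24 (limma adjusted p = 0.023), and Uchl1, a neuronal hydrolase, at 1.20 ± 0.18 (limma adjusted p = 0.0088). Pnmt, which makes adrenaline, at 0.90 ± 0.25 (limma adjusted p = 0.097), and the granule protein Chga, at 0.53 ± 0.23 (limma adjusted p = 0.23), did not pass. Second probe sets of Pnmt and Chga stood at 1.19 and 0.08. The 13 measured markers summed to signals of 312704 to 416505 in BPH and 185610 to 282436 in BPL, and none of them was at 0. This list was written with results of these data known. Without BPH replicate 1, BPH replicate 2, BPL replicate 1 or BPL replicate 2, 1 marker was called, and without BPL replicates 1 and 2 together, which leaves 1 BPL array assumed to vary like the BPH arrays, the median was 0.35 and 0 were called.

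Set against the mean log2 value of the 11 tested chromaffin markers on the same array, the difference of the group means, BPH minus BPL, was negative for 6 of 6 members, from -0.91 for Rab3a to -0.12 for Snap25. The marker mean itself was 0.73 higher in BPH, so 94.5% of all tested probe sets were negative in the same way and the count says nothing particular of the members.

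BPH replicate 3 stood apart in some neuronal genes. Of 9 measured markers of sympathetic neurons and glia, 6 had their highest signal on that array, as did 10.2% of all tested probe sets. Only 4 of these 9 were bright enough to be tested, so that share comes from a brighter set. Of the 11 member probe sets, 6 of them tested, 4 were highest on BPH replicate 3 and 2 lowest there. BPH replicate 1 was also highest for 4, but it was highest for 27.2% of all tested probe sets, against 10.2% for BPH replicate 3. Prph, the intermediate filament of peripheral neurons, had 131, 301 and 1826 in BPH and 357, 209 and 429 in BPL. Gap43, a protein of growing axons, had 447, 186 and 1469 in BPH and 383, 328 and 345 in BPL. These genes, too dim to be tested, were far above all other arrays in BPH replicate 3, the array that was also highest for Snap25 and Syt1. The summed signal of the 9 markers was 11339 to 20975 in BPH, with BPH replicate 3 at the top, and 10865 to 11847 in BPL, and none of them was at 0. Of the 4 tested markers 0 were called by limma, while 2 had an unadjusted p under 0.05, against 20.6% of all tested probe sets, and they went in opposite directions, the neuronal tubulin Tubb3 at 0.64 and the glial protein S100b at -0.43. A second Tubb3 probe set stood at -0.09. S100b and Sox10, a factor of glia, were highest on BPL replicate 1. So was the dim neurofilament gene Nefm, at 124, against 62.1 on BPH replicate 3. The summed chromaffin markers were lowest among the BPH arrays on BPH replicate 3, at 312704. Among the BPH arrays, the mean log2 value of the tested ones was lowest on BPH replicate 1, at 13.99, with 14.05 on BPH replicate 3. The part of nerve tissue in the Snap25 values was not tested, and the value without that array is given above. Nefm, Prph, Gap43, Tubb3, S100b and Sox10 are named because of their values.

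**Figure D4:**
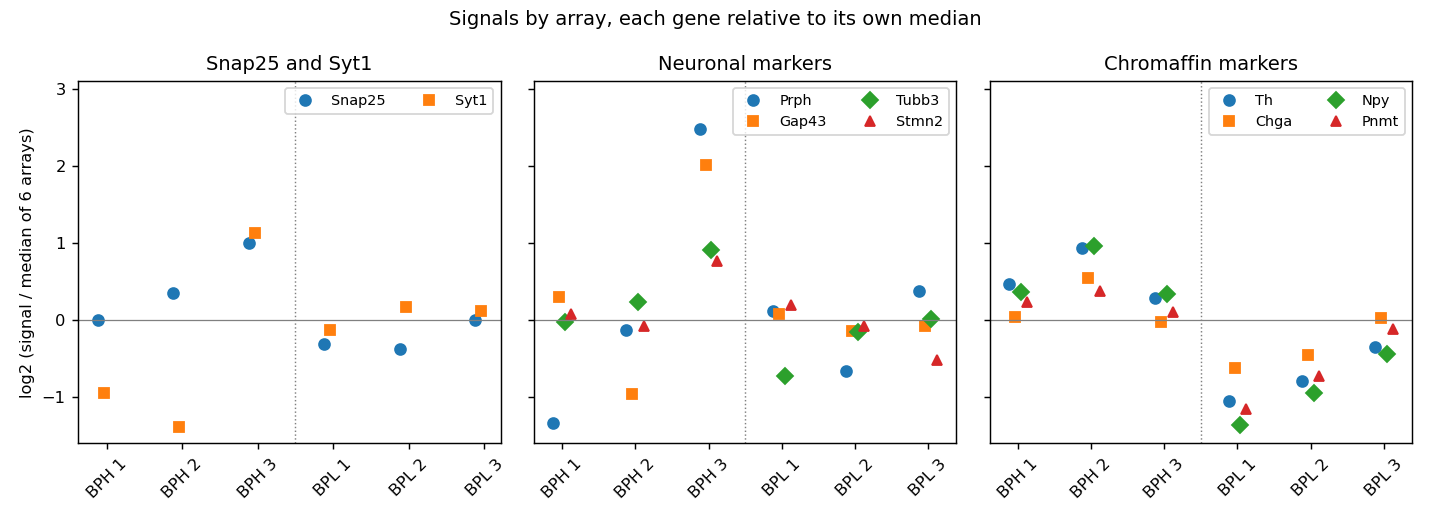
Log2 of signal over the median of the 6 arrays (vertical axis) for Snap25 and Syt1, 4 neuronal markers and 4 chromaffin markers on each array, BPH left of the dotted line and BPL right of it. Snap25, Syt1 and the 4 neuronal markers shown are highest on BPH replicate 3, where Prph reached 1826 and Gap43 reached 1469. The 4 chromaffin markers shown are highest on BPH replicate 2. Of the 9 measured neuronal and glial markers, 6 were highest on BPH replicate 3 and 3 on BPL replicate 1. Of the 13 measured chromaffin markers, 10 were highest on BPH replicate 2, 2 on BPH replicate 3 and 1 on BPH replicate 1.

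The gene whose profile over the 6 arrays was most like that of Snap25 was Nsf, nearly tied with Ddx50 and Acot7. The root mean square differences between the centred log2 values were 0.1346, 0.1352 and 0.1353. The median over all tested probe sets was 0.47. Nsf had signals of 2447, 2819 and 3490 in BPH and 1769, 1795 and 2135 in BPL. All BPH arrays lay above all BPL arrays and BPH replicate 3 was the highest. Ddx50 is an RNA helicase and Acot7 an acyl-CoA thioesterase of neurons. Next came Ggcx, the vitamin K-dependent carboxylase, at 0.140 and Gdap1, a mitochondrial protein of neurons, at 0.152. Among the members Vamp2 was nearest to Snap25, at 0.31, and Rab3a was farthest, at 0.62. Between members the closest pair was Vamp2 and Rab3d, at 0.15.

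Of the tissue as a whole, the 9 tested cortex markers had a median log2 difference of 0.17. Of these, 1 was called, Mrap, higher in BPH at 0.92, against 3.18% of all tested probe sets called higher. The cortex markers were bright in both strains, at a summed signal of 700386 to 820590 in BPH and 560741 to 730220 in BPL. Nr5a1 stood at 0.44 and was not called by the probe set used here. Its other tested probe sets were at 1.24 (limma adjusted p = 0.023) and 0.96 (limma adjusted p = 0.089). Second probe sets of Star and Hsd3b1 stood at 0.02 and 0.31. The 10 skeletal muscle markers summed to 2881 to 4218 in BPH and 23151 to 302491 in BPL, with 7 of 9 tested genes called lower in BPH, against 0.926% of all tested probe sets, and the 5 fat markers to 117695 to 175853 in BPH and 164482 to 182367 in BPL. None of these markers was at 0. For Gapdh, the control probe set at the 3' end over that at the 5' end, a sign of RNA quality, gave log2 ratios of 0.084 to 0.214 in BPH and -0.033 to 0.057 in BPL. For beta-actin these ratios were larger, 0.944 to 1.25 in BPH, highest on BPH replicate 3, and 0.791 to 0.897 in BPL. Neither control overlapped between the strains. The part of muscle, fat and RNA quality in the member values was not tested. Against BPL replicate 3 alone, the BPL array with the least muscle signal, the log2 differences of Snap25 and Vamp2 were 0.41 and 0.24.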

How the data were processed

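The deposited values are linear intensities, 1 for each probe set on each array, which the authors computed with MAS5 according to the submitters' processing notes. Its version and settings are unstated in those notes. The mean trimmed by 2% at each end was 2501.34 to 2501.53 on every array. Members and lists were chosen with earlier results of these data known.

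Of 12488 probe sets, 66 controls were left out. Of the other 12422, 10833 have 1 gene symbol, 396 several and 1193 none. Array medians differed by 21.0% (945 to 1144), above a tolerance of 10%, so arrays were scaled to the mean median of 1040. Values were log2(signal + 203), the 20th percentile. The dimmest 40% by mean over the 6 arrays, below a signal of about 617, were not tested, leaving 7453. The test was lmFit with eBayes in limma 3.58.1 under R 4.3.3, 2-sided, with 4 residual and 4.50 prior degrees of freedom, Benjamini-Hochberg adjustment over all 7453 probe sets and a threshold of 0.05. Precision is limited by the number of arrays, and detection calls were not used.

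A list gene was represented by its probe set with the highest mean. Named genes were all members, every called gene of the other exocytosis list or its 3 largest differences in each direction, up to 3 called markers per list, Th, Chga and Pnmt, and the 5 genes with profiles nearest to Snap25. Syt7, Rab3b, Rab3ip, Phox2a, Nefm, Prph, Gap43, Tubb3, S100b, Sox10, Nr5a1, Star and Hsd3b1 fall outside this rule and were named after their values were seen. Muscle, fat and immediate early lists are given as summaries only. Alternatives were other scalings, pseudocounts and filters, eBayes with trend and robust settings, the replicate block, leaving out arrays and averaging the probe sets of each gene. No pair of arrays shared more than 1 identical value.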

Additional observations from a re-analysis of the deposited data

How the results depend on the processing

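Under all alternatives run, 0 member probe sets and 0 of the other exocytosis genes were called by limma. Snap25 (0.36 to 0.82), Vamp2 (0.22 to 0.44) and Cplx2 (0.03 to 0.28) kept a positive log2 difference in all 15 alternatives each. The filters, the trend and robust settings and the replicate block leave a log2 difference unchanged. Only the other scalings, the pseudocounts and the left-out arrays could have turned a sign. Signs that turned were those of differences that had not passed. Cplx1 was at 0.10 without BPH replicate 3, 0.12 without BPL replicate 1 and 0.18 without BPL replicates 1 and 2, and its values with 1 array left out ran from -0.13 to 0.12. Rab3a was at 0.19 without BPL replicates 1 and 2. Rab3d was at -0.0034 with the authors' scaling and -0.10 without BPL replicates 1 and 2. Cplx1 and Rab3a had no value with the stricter filter, which leaves them untested. The cause was not tested. The median of all tested probe sets was 0.08, and -0.02 with the authors' scaling, so differences shift by about as much. Calls over the whole table were 306 (237 higher, 69 lower in BPH), 294 with the authors' scaling (195 higher, 99 lower), 269 after quantile normalization (181 higher, 88 lower), 127 with no filter, 112 to 372 with 1 array left out and 92 without BPL replicates 1 and 2. Called chromaffin markers were 5, and 3 with the authors' scaling, 2 with no filter, 3 with the replicate block, 1 to 6 with 1 array left out and 0 without BPL replicates 1 and 2. Their median was 0.40 with the probe sets of each gene averaged. Arrays of the same replicate number did not deviate together (correlations of -0.06, -0.05 and -0.18). This check cannot exclude that such arrays were collected or processed together. The replicate block gave 239 calls in all and 0 among members. Fewer samples remain where arrays are left out, and leaving out BPL replicates 1 and 2 leaves 1 BPL array, whose spread is taken from BPH. Dim probe sets limit Syt1, Syt4 and Stx1a. Intervals of Syt1 and Stx1a are wide, and that of Syt4 is -0.14 to 0.69, on a scale that understates changes of dim genes.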
